A study of Mus musculus with 4 samples.

Results

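L6-Npy and L6-Syt6 are the layer 6 subtypes among the 7 excitatory neuron subtypes that the authors named in the ventromedial prefrontal cortex (vmPFC) of the mouse. Members were taken from the authors' subtype label of each cell. Of 9368 labelled excitatory neurons, 1118 were L6-Npy and 5092 were L6-Syt6, so the pair held 6210 neurons. All samples came from male C57BL/6 mice with a labelled age of 8 weeks, their age at virus injection per the study's methods, and tissue was taken 6 weeks later. Their insula, dorsomedial striatum, mediodorsal thalamus, basolateral amygdala and lateral hypothalamus had been injected on 1 side with rAAV2-retro viruses that carry EGFP and a barcode under a short CAG promoter, which is active in most cell types. The PrL and IL areas were dissected from slices kept with blockers of AMPA and NMDA receptors before dissociation. There were 3 unsorted libraries, titled mouse 1, 2 and 3, and 1 FAC-sorted library of EGFP-positive cells pooled from 3 further mice. The titles give each unsorted library a mouse of its own, while the design describes cells of 3 mice loaded on 3 lanes, so the spread between these libraries may be technical in part.

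Layer 6 of the cortex holds several classes of glutamatergic projection neuron. Corticothalamic neurons send axons to the thalamus and are set up by transcription factors such as Tbr1, Fezf2 and Foxp2. Intratelencephalic neurons keep their axons within cortex and striatum. A further class, the layer 6b neurons at the border to the white matter, descends in part from the embryonic subplate and is marked by Ctgf, Cplx3 and Nxph4.

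L6-Npy contributed 295, 267 and 275 cells to the unsorted libraries and 281 to the sorted library, and L6-Syt6 contributed 1511, 1426, 1382 and 773. Values per library are given in this order throughout, with unsorted 1, 2 and 3 first and the sorted library last. UMIs (unique molecular identifiers, the counted transcripts) were summed per library and subtype, which gave 5417097 to 7237228 UMIs per sum in L6-Npy and 26839226 to 34146433 in L6-Syt6. Levels are given as CPM, the UMIs of a gene scaled to 1000000 UMIs of the sum. Library pairs shared 5 to 30 cell barcodes, of which 0 to 4 were among the labelled neurons. The sorted library was read more deeply and had fewer mitochondrial UMIs than the unsorted libraries, and values that differ there are given beside each result.

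Both subtypes expressed the vesicular glutamate transporter Slc17a7 at similar levels, with 1097, 1097, 1122 and 1353 CPM in L6-Npy and 1021, 997, 1015 and 1119 CPM in L6-Syt6. The genes that gave the subtypes their names separated them in every library. Npy, the neuropeptide Y precursor (chr6:49822710-49829507, GRCm38, plus strand), was at 217, 219, 279 and 133 CPM in L6-Npy and at 2.55, 2.05, 3.81 and 0.671 CPM in L6-Syt6. Its lowest level in L6-Npy, in the sorted library, lay far above its highest in L6-Syt6. Syt6, a synaptotagmin of the vesicle release family (chr3:103575231-103645569, plus strand), was at 3.10, 6.65, 1.71 and 1.52 CPM in L6-Npy and at 136, 130.1, 130.1 and 173 CPM in L6-Syt6. The sorted library had the highest Syt6 level of L6-Syt6 and the lowest of L6-Npy.

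Detection in single cells showed that the names fit unequal parts of each subtype. At least 1 Syt6 UMI was found in 88.8%, 88.1%, 88.6% and 92.8% of L6-Syt6 cells and in 3.05%, 3.75%, 2.18% and 3.56% of L6-Npy cells. Microglia-like cells, which were read at lower depths, had one in at most 1.34%. Npy UMIs were found in 52.9%, 50.9%, 56.0% and 55.5% of L6-Npy cells and in 4.77%, 3.93%, 5.14% and 1.16% of L6-Syt6 cells. Microglia-like cells of the 3 unsorted libraries, which should lack Npy, had a Npy UMI in 3.06%, 2.41% and 2.16% of cells at median depths of 4180, 4136 and 4431 UMIs, while the subtypes were read at medians of 19031 to 35701 UMIs. With every cell thinned to 2000 UMIs the unsorted shares were 23.7%, 27.0% and 28.7% in L6-Npy, 0.530%, 0.351% and 0.797% in L6-Syt6 and 1.55%, 1.59% and 1.39% in the microglia-like cells, so Npy in L6-Syt6 cells was not above its background in cells that should lack it.

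Subtype labels came from the authors' clustering of these same counts. Fold changes and calls between the subtypes are therefore a description of size and of repeatability over libraries, not a test of whether the subtypes differ, and no p-value is given for a gene. A gene was called when edgeR's quasi-likelihood fit across all genes, with the library as a block, gave an adjusted p (Benjamini-Hochberg) below 0.05 with a fold of at least 0.5 in size on the log2 scale. Of 13599 genes tested, 4424 were called (32.5%), 2076 higher in L6-Npy (15.3%) and 2348 higher in L6-Syt6 (17.3%). The same sign was seen in all 4 libraries for 4358 of the called genes. Levels of the 4 libraries did not overlap between the subtypes for 5958 genes (43.8%). At 4-fold or more, 524 genes were higher in L6-Npy and 444 in L6-Syt6, and at 16-fold or more 150 and 156. The median log2 fold change of all tested genes was 0.01. Counts of called genes in the lists below are to be read beside the shares of 15.3% and 17.3%. No list was tested against these shares.

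Corticothalamic markers lay almost entirely on the L6-Syt6 side. Of 16 listed genes, all of which passed the filter on low counts, 14 were higher in L6-Syt6, 1 was higher in L6-Npy and 1, Sox5, was not called. The median log2 fold change (L6-Npy over L6-Syt6, negative where L6-Syt6 is higher) was -3.50. Their summed level was 4397 to 5271 CPM in L6-Syt6 and 786 to 991 CPM in L6-Npy. The largest differences were in Hs3st4, Foxp2, Rprm and Syt6, and the smallest among genes called higher in L6-Syt6 were in Nfib, Bcl11b and Tbr1.

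Foxp2, a forkhead transcription factor of corticothalamic neurons (chr6:14901349-15441977, plus strand), was at 5.00, 6.46, 7.19 and 1.38 CPM in L6-Npy and at 240.4, 237, 229 and 284 CPM in L6-Syt6. Tle4, a corepressor of the same neurons, differed 20.0-fold (11.1 to 14.0 against 244 to 259.7 CPM) and the zinc-finger factor Fezf2 6.84-fold (13.8 to 20.2 against 108 to 118 CPM). Tbr1 was not restricted to L6-Syt6. Its level was 143, 133, 141 and 140.2 CPM in L6-Npy and 346, 347, 338 and 323 CPM in L6-Syt6, and 2.52-fold was the size of the difference. Bcl11b, known for subcerebral projection neurons, differed 2.04-fold, and the nuclear factor Nfia 3.49-fold.

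Ntsr1, the neurotensin receptor whose promoter is widely used to reach layer 6 corticothalamic neurons in sensory cortex, was the listed gene that went the other way (chr2:180499976-180544980, plus strand). Ntsr1 was at 22.6, 27.5, 28.8 and 45.2 CPM in L6-Npy and at 16.3, 16.8, 16.6 and 27.6 CPM in L6-Syt6. Within every library the level was higher in L6-Npy, while across libraries the ranges overlapped, since the sorted library was highest in both subtypes. The log2 fold change was 0.62 ± 0.07 (SE), and 34.6%, 40.4%, 44.4% and 65.5% of L6-Npy cells had a Ntsr1 UMI against 28.1%, 30.1%, 30.5% and 56.1% of L6-Syt6 cells, with 0 to 2 cells of 924 to 1047 in the microglia-like cells of each unsorted library. Among cells with a barcode UMI alone, the log2 fold change of Ntsr1 was 0.50, just under the limit of a call. Levels in the 5 other subtypes were 11.3 CPM in L2/3-Calb1, 3.91 in L2/3-Rorb, 12.4 in L5-Bcl6, 0 in L5-Htr2c and 9.80 in L5-S100b, so the layer 6 subtypes held the highest means of the 7.

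Markers of layer 6 intratelencephalic neurons went with L6-Npy. Of 10 listed genes 8 passed the filter, 7 were higher in L6-Npy and 1, Col23a1, was higher in L6-Syt6, with a median log2 fold change of 3.2. Osr1, an odd-skipped zinc-finger factor (chr12:9570116-9581500, plus strand), was at 31.0, 25.3, 34.2 and 35.1 CPM in L6-Npy and at 0.205, 0.0916, 0.242 and 0.186 CPM in L6-Syt6. Oprk1, the kappa opioid receptor (chr1:5588466-5606131, plus strand), was at 85.1 to 104 CPM in L6-Npy and at 0.264, 0.458, 0.454 and 1.60 CPM in L6-Syt6. Both genes were low in the other 5 subtypes, with means of 0 to 1.40 CPM for Osr1 and up to 6.09 CPM for Oprk1. The proenkephalin gene Penk (20.5-fold) and the collagen gene Col27a1 (33.3-fold) went the same way, and Car3, another listed gene, had 0 UMIs in both subtypes.

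General intratelencephalic markers were split. Of 8 listed genes 7 passed the filter, 4 were higher in L6-Npy, among them Slc30a3, Lhx2 and Pou3f2, and 2, Cux1 and Pou3f3, were higher in L6-Syt6. Slc30a3, the transporter that loads zinc into synaptic vesicles, was at 111, 116, 122 and 155 CPM in L6-Npy and at 1.26, 1.65, 2.42 and 2.42 CPM in L6-Syt6, a 62.4-fold difference. The transcription factors Lhx2 (4.97 to 7.36 against 1.45 to 2.69 CPM) and Pou3f2 (8.57 to 11.4 against 3.28 to 4.95 CPM) were higher in L6-Npy, and Cux1 (8.10 to 10.6 against 17.4 to 20.8 CPM) in L6-Syt6.

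Counted per cell, corticothalamic UMIs left little overlap between the subtypes. After each cell was thinned to 10000 UMIs, which left 1106 L6-Npy and 4969 L6-Syt6 cells, the 16 corticothalamic genes summed to a median of 7, 7, 7 and 9 UMIs in L6-Npy cells and 45, 44, 44 and 53 in L6-Syt6 cells. The 90th percentile of L6-Npy (13, 12, 11 and 15 UMIs) stayed below the 10th percentile of L6-Syt6 (31, 30, 29 and 37 UMIs) in each library. The 18 intratelencephalic genes gave medians of 5, 5, 5 and 6 UMIs against 2 in each L6-Syt6 library, with wide overlap. Corticothalamic UMIs still outnumbered intratelencephalic UMIs in 66.1%, 61.5%, 57.3% and 74.0% of L6-Npy cells and in 99.4% to 100% of L6-Syt6 cells. Among the corticothalamic genes Nfib, Tbr1 and Bcl11b had means of 268, 139.6 and 109 CPM in L6-Npy.

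**Figure D1:**
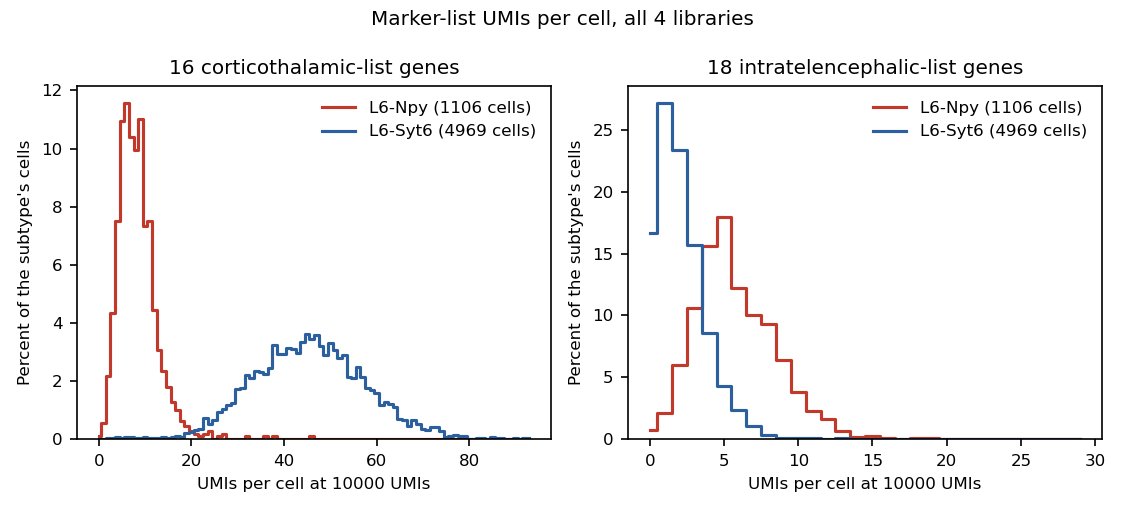
UMIs per cell of the 16 corticothalamic-list genes (left) and the 18 intratelencephalic-list genes (right) after thinning to 10000 UMIs per cell, as percent of the cells of each subtype over the 4 libraries. The corticothalamic distributions barely meet near 20 UMIs, while the intratelencephalic distributions overlap between 2 and 6 UMIs.

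L6-Syt6 also carried the layer 6b markers. Of 6 listed genes 5 passed the filter, and Nxph4, Ctgf, Cplx3 and Tmem163 were higher in L6-Syt6. Ctgf, a secreted matricellular protein, was at 1.03, 1.11, 0.514 and 0 CPM in L6-Npy and at 38.3, 39.3, 37.9 and 24.7 CPM in L6-Syt6. Cplx3, a complexin, was at 0.138 to 1.11 against 6.35 to 10.5 CPM, and Nxph4, a neurexophilin, had 0 UMIs in L6-Npy and 414 UMIs in L6-Syt6, at least 26.5-fold higher when 3 UMIs over the 4 L6-Npy sums are taken as the floor. Nr4a2, which also marks subplate-derived neurons, was not called, at 107, 135, 107 and 122 CPM in L6-Npy and 93.5, 92.6, 105 and 106 CPM in L6-Syt6.

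Genes of other projection classes were low in both subtypes. Of 4 layer 5 extratelencephalic genes 3 passed the filter, and Bcl6 (3.37 against 0.371 CPM) and Pou3f1 (4.48 against 0.761 CPM), both transcription factors, were higher in L6-Npy, with a summed level of 8.56 to 11.9 against 2.63 to 3.00 CPM. Of 4 near-projecting genes 3 passed, and Tshz2, a zinc-finger factor, and Trhr, the receptor of thyrotropin-releasing hormone, were higher in L6-Syt6, with sums of 2.22 to 3.77 against 18.7 to 22.5 CPM. Tshz2 stood at 1214 CPM in L5-Htr2c and at 10.6 CPM in L6-Syt6. Of 6 general excitatory genes 1 was called, the kinase gene Camk2a at 479.9 to 1033 CPM in L6-Npy and 255 to 527 CPM in L6-Syt6, and the sums overlapped (5436 to 6273 against 6026 to 6168 CPM).

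The largest differences of each direction were ranked among called genes with a mean of at least 20 CPM in the higher subtype. Higher in L6-Npy were Dcn, the matrix proteoglycan decorin (log2 fold change 7.84 ± 0.14, SE), Npy2r, the Y2 receptor of neuropeptide Y (7.33 ± 0.15), Osr1 (7.32 ± 0.13), Oprk1 (7.09 ± 0.21), S100a6, a calcium-binding S100 protein (7.02 ± 0.14), and Unc13c, a vesicle priming factor (6.70 ± 0.12). Asic4 of the acid-sensing channel family, Npy, Ccdc3, the corepressor Tle3, the synaptotagmin Syt17 and the Nogo receptor relative Rtn4rl1 followed, from 6.52 down to 6.27.

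Dcn was at 42.9, 44.3, 36.8 and 57.3 CPM in L6-Npy and at 0.264, 0.122, 0.182 and 0.149 CPM in L6-Syt6. Npy2r was at 62.4, 55.6, 58.0 and 62.2 CPM in L6-Npy and at 0.146, 0.519, 0.333 and 0.410 CPM in L6-Syt6. S100a6 was at 104, 78.6, 117 and 67.4 CPM in L6-Npy and at 0.439, 0.947, 0.938 and 0.373 CPM in L6-Syt6. For each of these genes the lowest L6-Npy level lay above the highest L6-Syt6 level.

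Higher in L6-Syt6 were Vwc2, a secreted antagonist of bone morphogenetic proteins (-7.11 ± 0.29), Hs3st4, which sulfates heparan sulfate chains (-6.35 ± 0.28), and Slc17a6, another vesicular glutamate transporter (-5.95 ± 0.19). Rnf152, a ubiquitin ligase (-5.88 ± 0.12), Ctgf (-5.84 ± 0.22), the background potassium channel Kcnk2 (-5.83 ± 0.11) and Foxp2 (-5.74 ± 0.25) came next. Col12a1, Rell1, Rprm, the neurexin ligand Nxph3 and the lipid transfer protein Pitpnc1 followed, from -5.72 to -5.61.

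Vwc2 was at 0.517, 0.185, 0 and 0 CPM in L6-Npy, where it had 4 UMIs in all, and at 22.4, 21.4, 19.2 and 26.7 CPM in L6-Syt6. Hs3st4 was at 5.34, 7.75, 6.85 and 2.35 CPM in L6-Npy and at 368, 362, 354 and 627 CPM in L6-Syt6, highest in the sorted library. Rprm, a p53 target known as a cell cycle arrest gene, was at 18.1, 39.3, 26.2 and 18.8 CPM in L6-Npy and at 1201, 1176, 1157 and 1224 CPM in L6-Syt6. No level of these genes overlapped between the subtypes. Rprm UMIs were found in 93.1% to 96.4% of L6-Syt6 cells and in 16.9% to 29.2% of L6-Npy cells, with 4.30% to 6.71% of the shallower microglia-like cells beside them. With every cell thinned to 2000 UMIs the shares were 4.07%, 3.37%, 1.45% and 2.14% in L6-Npy. In microglia-like cells they were then 2.69%, 2.04%, 3.02% and 2.17%, so Rprm in L6-Npy cells was near this background.

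**Figure D2:**
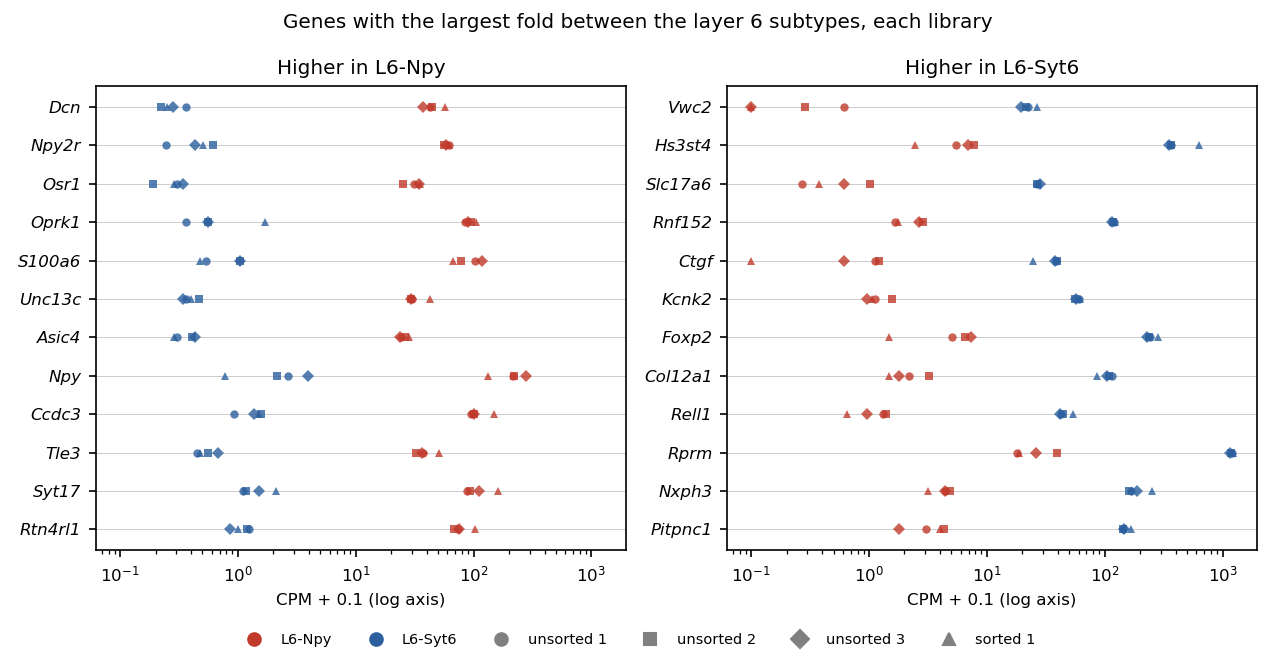
CPM plus 0.1 on a log axis of the 12 genes with the largest fold in each direction, with 1 symbol per library and red for L6-Npy, blue for L6-Syt6. The colours do not overlap for any of the 24 genes, and for Hs3st4 and Foxp2 the sorted library is the highest of L6-Syt6 and the lowest of L6-Npy.

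Seen against all 7 excitatory subtypes, the genes that separated the pair were of different kinds. Of the 524 genes at least 4-fold higher in L6-Npy, 207 (39.5%) had their highest mean level in L6-Npy, 147 (28.1%) in L2/3-Calb1, 70 in L2/3-Rorb, 47 in L5-Bcl6, 32 in L5-S100b and 21 in L5-Htr2c. Of the 444 genes at least 4-fold higher in L6-Syt6, 199 (44.8%) were highest in L6-Syt6 and 159 (35.8%) in L5-Htr2c, followed by 40 in L5-Bcl6 and 33 in L2/3-Rorb. L5-Htr2c had only 4 cells and 81937 UMIs in the sorted library, which weighs as much in its means as each unsorted library. Means of L5-Htr2c, and the counts of genes highest there, are therefore uncertain. Dcn, Npy2r, Osr1, Oprk1, Asic4 and Npy belonged to the first kind on the L6-Npy side. Syt17 was instead at 129.6 CPM in L2/3-Calb1, 107 in L2/3-Rorb, 160.2 in L5-Bcl6 and 112 in L5-S100b, so L6-Syt6 (1.37 CPM) and L5-Htr2c (2.32 CPM) stood apart by a low level.

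L6-Syt6 and L5-Htr2c shared several of the leading genes. Rnf152 was at 119 CPM in L6-Syt6 and 290.3 in L5-Htr2c, Nxph3 at 191 and 358, Kcnk2 at 58.7 and 249, and Slc17a6 at 27.1 and 185. Foxp2, Rprm, Hs3st4, Vwc2 and Pitpnc1 were highest in L6-Syt6, and Syt6, at 142 CPM there, was at most 5.30 CPM in any other subtype. Across the 13599 genes, the Pearson correlation of log2 CPM profiles was 0.939 between the layer 6 subtypes. L6-Npy stood closer to L5-S100b (0.967), L2/3-Calb1 (0.963), L2/3-Rorb (0.951) and L5-Bcl6 (0.946), and L6-Syt6 stood closest to L5-S100b (0.946). All these profiles share the same 4 libraries, and genes are not independent replicates.

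**Figure D3:**
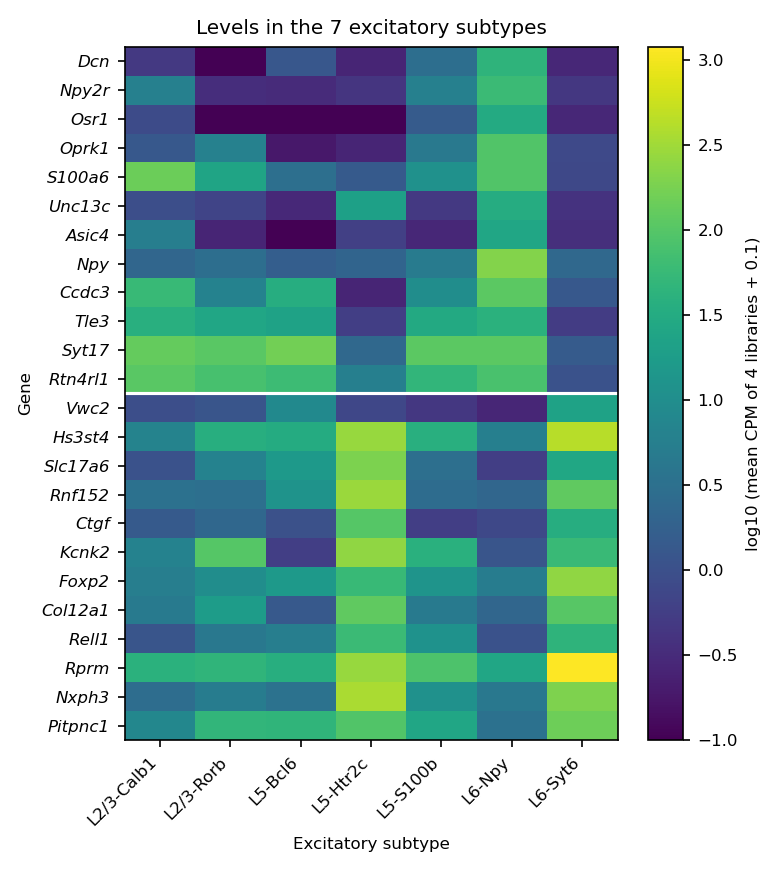
Mean level of the 24 leading genes (rows, L6-Npy side above the white line) in the 7 excitatory subtypes (columns), as log10 of mean CPM plus 0.1 over 4 libraries. Osr1 and Oprk1 are bright in L6-Npy alone, Syt17 and Rtn4rl1 are dark in L6-Syt6 and L5-Htr2c, and most genes below the line are bright in both L6-Syt6 and L5-Htr2c.

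Neuropeptide genes differed by far more in summed level than in number. Of 17 listed genes 11 passed the filter, 4 were higher in L6-Npy (Npy, Cck, Penk, Adcyap1) and 3 in L6-Syt6 (Trh, Nts, Grp). Cck, the cholecystokinin precursor, was at 3886, 3577, 3931 and 1220.5 CPM in L6-Npy and at 92.1, 89.2, 99.9 and 45.3 CPM in L6-Syt6. The sorted library was lowest in both subtypes, and the fitted difference was 35.3-fold. Cck UMIs were found in every L6-Npy cell and in 42.0%, 40.8%, 42.9% and 46.2% of L6-Syt6 cells, against 8.21% to 13.0% of the shallower microglia-like cells. With every cell thinned to 2000 UMIs the shares were 11.2%, 12.2%, 12.3% and 8.54% in L6-Syt6. In the microglia-like cells they were then 4.03%, 4.08%, 3.02% and 6.52%, so the gap was much smaller, and least in the sorted library. The list's sum was 1392 to 4286 CPM in L6-Npy and 93.7 to 169 CPM in L6-Syt6.

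Peptide genes on the L6-Syt6 side differed less evenly over the libraries. Trh, the thyrotropin-releasing hormone precursor, had 3 UMIs in L6-Npy and 318 in L6-Syt6, a ratio of CPM of 20.3 (95% counting interval 6.89 to 99.1). Nts, the neurotensin precursor, was at 6.03, 2.58, 4.79 and 2.63 CPM in L6-Npy and at 8.49, 7.58, 8.54 and 1.75 CPM in L6-Syt6, with the sorted library higher in L6-Npy. Without cells that had 2 or more UMIs of non-neuronal markers the log2 fold change of Nts turned from -0.72 to 0.36. Grp, the gastrin-releasing peptide precursor, overlapped between the subtypes (10.6 to 37.5 against 37.3 to 46.1 CPM), and its fold change fell to -0.40 without the sorted library.

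More peptide receptors were called higher in L6-Npy than in L6-Syt6, beside 15.3% and 17.3% of all tested genes, and this split was not tested. Of 28 listed receptors 23 passed the filter, 13 were higher in L6-Npy and 6 in L6-Syt6, with a median log2 fold change of 0.62. Oxtr, the oxytocin receptor, was at 7.75, 9.78, 10.1 and 12.3 CPM in L6-Npy and at 0.0293, 0, 0.121 and 0.112 CPM in L6-Syt6, and Tacr3, the neurokinin B receptor, was 25.2-fold higher in L6-Npy (4.62 to 7.19 against 0.149 to 0.410 CPM). On the other side both receptors of the wake-promoting orexins were higher in L6-Syt6. Hcrtr2 had 0 UMIs in L6-Npy and 793 in L6-Syt6, where it was at 7.23, 6.26, 5.81 and 5.55 CPM, at least 50.7-fold higher against the floor of 3 UMIs. Hcrtr1 was at 0 to 0.685 against 5.63 to 6.11 CPM, Trhr at 0.685 to 1.93 against 7.20 to 11.6 CPM and Oprm1, the mu opioid receptor, at 0 to 0.342 against 0.969 to 1.48 CPM. The mu and kappa opioid receptors thus went opposite ways.

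Receptors of monoamines and acetylcholine were called in similar numbers on each side. Of 47 listed genes 26 passed the filter, and 11 were higher in L6-Npy and 9 in L6-Syt6. Drd2, the D2 dopamine receptor, was at 11.9, 14.6, 16.4 and 26.1 CPM in L6-Npy and at 0.176, 0.0611, 0.121 and 0.298 CPM in L6-Syt6, while Drd5, a D1-like receptor, was at 1.03, 1.66, 0.514 and 0.553 and at 11.3, 11.1, 10.6 and 15.6 CPM. No library overlapped for either gene. Among serotonin receptors, Htr2a (36.3-fold) and Htr1b (6.18-fold) were higher in L6-Npy, with means of 44.1 against 1.14 CPM and 34.5 against 5.31 CPM. Htr7 had 1 UMI in L6-Npy and 566 in L6-Syt6, a ratio of 108.5 with a counting interval of 19.4 to 4293.

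Nicotinic subunits also went both ways. Chrna5, the accessory subunit that layer 6 pyramidal cells of prefrontal cortex are known for, was at 0, 0.369, 0.685 and 0.138 CPM in L6-Npy and at 13.0, 13.0, 12.2 and 12.2 CPM in L6-Syt6. Its only higher mean among the 7 subtypes was 17.6 CPM in L5-Htr2c. Chrnb3 had 1 UMI against 164 (ratio 31.4, interval 5.56 to 1249), and Chrna1, best known from muscle, was higher in L6-Npy at low levels (0.787 against 0.132 CPM).

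Glutamate receptor genes were called on each side, beside 15.3% of all tested genes called higher in L6-Npy and 17.3% in L6-Syt6. Of 18 ionotropic glutamate receptor genes 15 passed, 4 were higher in L6-Npy and 3 in L6-Syt6. Grin3a, an NMDA receptor subunit that lowers calcium entry, was at 58.1, 56.5, 50.5 and 103 CPM in L6-Npy and at 3.63, 3.42, 3.93 and 3.80 CPM in L6-Syt6, a 16.9-fold difference with no overlap. The AMPA subunits Gria4 (1.97-fold) and Gria1 (1.63-fold) were also higher in L6-Npy, and the kainate subunits Grik3 (2.14-fold) and Grik4 (1.69-fold) and Grid1 (1.49-fold) in L6-Syt6. Of 8 metabotropic genes 7 passed. Grm5 (419.6 against 257 CPM) was among 2 that were higher in L6-Npy, and Grm4, Grm3 and Grm8 in L6-Syt6, with differences of 5.45-fold, 1.84-fold and 1.64-fold.

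GABA receptor genes were called 4 in each direction of 15 that passed among 21. Gabra2 was 3.80-fold higher in L6-Npy (90.3 to 125 against 24.3 to 29.9 CPM), with Gabrg1, Gabrq and Gabra3 from 2.49-fold down to 1.62-fold. Gabra5, the subunit of extrasynaptic receptors, was 2.49-fold higher in L6-Syt6 (54.6 to 61.5 against 135 to 143 CPM), and Gabrb2 and Gabrb1 went with it at 1.60-fold and 1.53-fold. All of these subunits were detected in both subtypes.

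Vesicle genes were called in both directions. Of 7 vesicular transporters 4 passed, and 1 was higher on each side, Slc30a3 in L6-Npy and Slc17a6 in L6-Syt6. Slc17a6 UMIs were found in 0.339%, 1.12%, 1.09% and 0.712% of L6-Npy cells and in 38.3%, 38.0%, 39.8% and 48.6% of L6-Syt6 cells, and at most in 2.17% of the microglia-like cells of a library. Of 17 synaptotagmins 14 passed, with Syt17 and Syt4 (1.70-fold) higher in L6-Npy and Syt6, Syt9, Syt3 and Syt5 higher in L6-Syt6. The last 3 differed by 1.66-fold, 1.61-fold and 1.58-fold, and the other 8 synaptotagmins were not called. Of all tested genes 15.3% were called higher in L6-Npy and 17.3% in L6-Syt6, so the L6-Npy count was near its share.

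Synaptic organizers, which link the pre- and postsynaptic membranes, were called 6 times higher in L6-Npy and 9 times in L6-Syt6 among 25 that passed of 29. C1ql3, a secreted C1q-like protein, was at 702, 754, 991 and 1157 CPM in L6-Npy and at 9.58, 10.7, 18.4 and 21.1 CPM in L6-Syt6. It was highest in L6-Npy of the 7 subtypes, while L6-Syt6 and L5-Htr2c (45.7 CPM) were the lowest. Lrrtm4, Lrrtm1 and the Lgi family gene Lgi3 were higher in L6-Npy by 4.69-fold, 3.82-fold and 3.72-fold, and Lgi2 was higher in L6-Syt6 by 3.08-fold. Of the neurexophilins, 3 were higher in L6-Syt6, Nxph3 at 3.04 to 4.80 against 161 to 251 CPM, Nxph2 at 0 to 0.738 against 1.79 to 4.95 CPM, and Nxph4 as given above. Nxph1, which is on no list and was looked up after the values were seen, passed the filter and was not called.

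**Figure D4:**
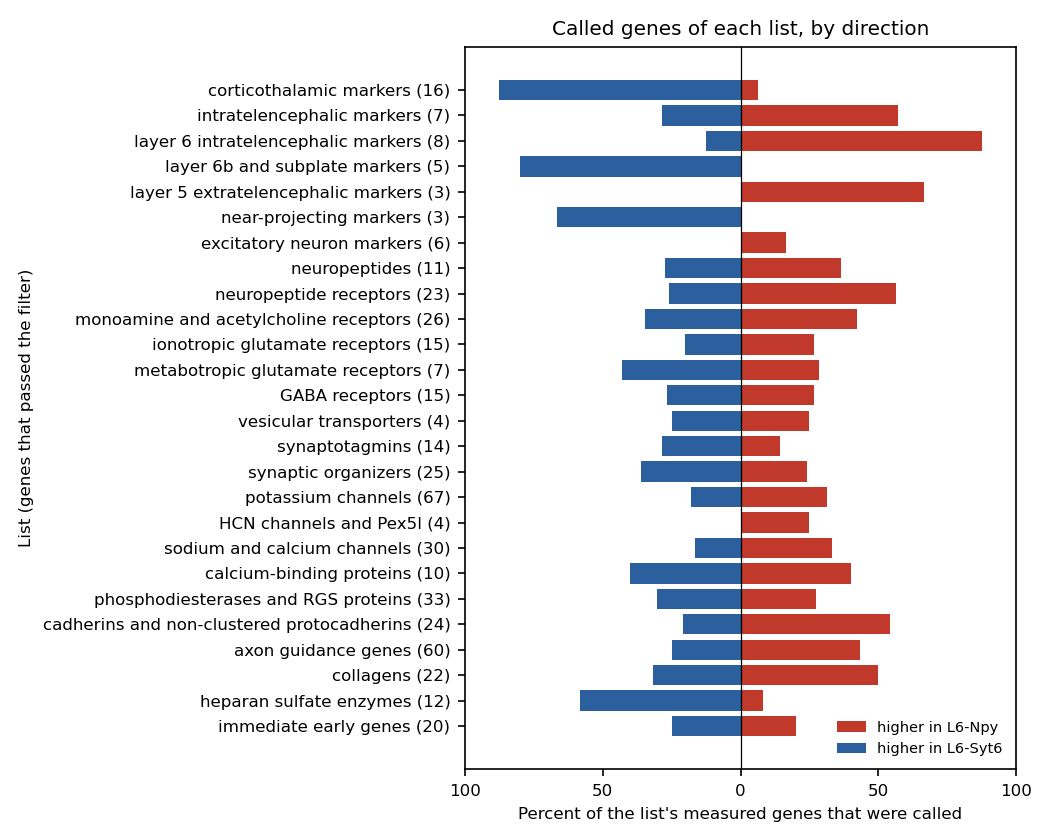
Percent of the genes of each list that passed the filter (number in parentheses) and were called higher in L6-Npy (red, to the right) or in L6-Syt6 (blue, to the left). Corticothalamic, layer 6b and heparan sulfate genes extend to the left, layer 6 intratelencephalic genes to the right, and receptor and channel lists to both sides.

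Potassium channel genes were called in both directions. Of 99 potassium channel genes 67 passed, 21 were higher in L6-Npy and 12 in L6-Syt6, beside 15.3% and 17.3% of all tested genes. The L6-Syt6 count was thus near the share of all genes. Kcnip4, an auxiliary subunit of A-type channels, was at 138 to 179 against 19.3 to 26.7 CPM and Kcnab1, a beta subunit, at 71.6 to 90.9 against 12.7 to 15.7 CPM. The related Kcnip3 went the other way, at 36.0 to 52.0 against 117 to 139 CPM, as did Kcnk2 at 0.856 to 1.48 against 56.1 to 61.3 CPM. Kcns3 (7.36-fold) and Kcnj16 (6.65-fold) on the L6-Npy side were low in both subtypes, as were Kcna5 (4.44-fold) and Kcnh5 (3 against 177 UMIs, ratio 11.3, interval 3.81 to 55.4) on the other.

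Of 40 sodium and calcium channel genes 30 passed. Of these, 10 were called higher in L6-Npy, beside 15.3% of all tested genes, and 5 in L6-Syt6, near the 17.3% of all tested genes. Cacna1g, a T-type channel of burst firing, was at 58.1, 65.5, 56.3 and 73.6 CPM in L6-Npy and at 4.83, 4.86, 4.45 and 7.75 CPM in L6-Syt6. Cacna1h, another T-type channel, differed 3.85-fold and the T-type channel Cacna1i was not called. The auxiliary subunit Cacna2d3 differed 11.5-fold and the AMPA receptor partner Cacng3 2.89-fold, and all but Cacna1i of these were called higher in L6-Npy. Cacna2d2 (0.138 to 0.517 against 5.99 to 6.41 CPM), Cacng4 (4.26-fold) and Scn4b (2.79-fold) were higher in L6-Syt6, and Cacng5 had 0 UMIs in L6-Npy and 478 in L6-Syt6, at least 30.5-fold higher. Of the HCN list 4 of 5 passed, and Hcn3 (9.37 against 5.40 CPM) was called.

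Calcium-binding proteins were called 4 in each direction of 10 that passed among 12, and their sum was 2324 to 3030 CPM in L6-Npy and 3623 to 4430 CPM in L6-Syt6. Calb1, calbindin, was at 40.1 to 53.7 against 1.77 to 2.72 CPM, and Necab1 (4.22-fold), Hpca (1.87-fold) and Necab2 (1.47-fold) were also higher in L6-Npy. The visinin-like sensors Ncald (717 to 1043 against 1557 to 2076 CPM), Vsnl1 (603 to 621 against 1247 to 1329 CPM) and Hpcal1 (2.20-fold), and S100b (2.07-fold), were higher in L6-Syt6. Of 43 phosphodiesterases and regulators of G protein signalling (RGS) 33 passed, with 9 higher in L6-Npy and 10 in L6-Syt6. Rgs13 (9.53 to 18.4 against 0 to 0.122 CPM), Rgs12 (10.7-fold), Rgs2 (4.64-fold) and Pde7b (4.96-fold) went with L6-Npy, and Rgs5 (15.3-fold), Pde9a (5.08-fold) and Rgs16 (3.88-fold) with L6-Syt6. Pde1c had 1 UMI against 162 (ratio 31.1, interval 5.50 to 1234).

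Adhesion and guidance genes were called in both directions, beside 15.3% of all tested genes called higher in L6-Npy and 17.3% in L6-Syt6. Of 34 cadherins and non-clustered protocadherins 24 passed, 13 were higher in L6-Npy and 5 in L6-Syt6, with a median log2 fold change of 0.74. Cdh4 (34.9 to 62.3 against 2.50 to 3.28 CPM), Pcdh15 (7.15-fold), Cdh9 (6.95-fold) and Pcdh8 (6.25-fold) led in L6-Npy. Cdh6 was at 1.72, 3.69, 1.20 and 0.691 CPM in L6-Npy and at 44.7, 43.6, 41.0 and 56.3 CPM in L6-Syt6. Pcdh19, which was 176 CPM in L5-Bcl6 and 95.9 CPM in L2/3-Calb1, was at 5.86, 5.72, 5.31 and 2.90 CPM in L6-Npy and 72.7, 75.5, 70.0 and 87.1 CPM in L6-Syt6, so L6-Npy was the subtype with the lowest mean of the 7. Cdh18 and Cdh2, N-cadherin, differed 3.27-fold and 1.95-fold.

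Of 69 axon guidance genes 60 passed, 26 were higher in L6-Npy and 15 in L6-Syt6. Ntng1, netrin-G1, a synaptic adhesion protein, was at 48.1, 37.8, 49.1 and 64.4 CPM in L6-Npy and at 1.38, 1.56, 1.21 and 1.97 CPM in L6-Syt6, and the netrin receptor Unc5d at 39.4 to 71.9 against 0.977 to 1.79 CPM. Robo3, a divergent member of the Slit receptor family, was at 7.70 to 13.3 against 0.244 to 0.559 CPM, and Ntng2 had 26 UMIs against 2 (ratio 67.8, interval 17.0 to 590). Class 5 semaphorins led the other side. Sema5a was at 7.92, 7.75, 7.70 and 6.49 CPM in L6-Npy and at 169.9, 161, 164 and 225 CPM in L6-Syt6, and Sema5b at 4.48 to 8.86 against 44.3 to 61.2 CPM, while the ephrin receptor Ephb1 (13.0-fold) and Sema6a (10.8-fold) were higher there too. Ephb1 was at 2.11 CPM in L5-Htr2c, where Sema5a was at 235 CPM.

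Matrix genes were called in both directions. Of 44 collagens 22 passed, 11 were higher in L6-Npy and 7 in L6-Syt6. The type V chains split, with Col5a2 (18.3 to 23.5 against 0.0611 to 0.857 CPM) and Col5a3 (9.76-fold) higher in L6-Npy and Col5a1 (0.514 to 1.93 against 18.4 to 27.8 CPM) higher in L6-Syt6. Col22a1 (4.93-fold) went with L6-Npy, and Col12a1 (1.38 to 3.14 against 85.9 to 115 CPM), Col8a1 (9.77-fold) and Col24a1 (7.10-fold) with L6-Syt6. Of 17 enzymes that build or trim heparan sulfate 12 passed, 7 were higher in L6-Syt6 and 1, Hs6st1 (1.92-fold), in L6-Npy, with a median log2 fold change of -1.03. Beside Hs3st4, the sulfatase Sulf2 (5.65 to 9.13 against 86.2 to 109 CPM), Hs3st5 (3.12-fold) and Ndst3 (2.93-fold) were higher in L6-Syt6, and the sum was 387 to 467 CPM in L6-Npy and 978 to 1371 CPM in L6-Syt6.

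Immediate early genes were called in both directions. Of 20 such genes 4 were higher in L6-Npy, 5 were higher in L6-Syt6 and 11 were not called, with a median log2 fold change of -0.35, beside 15.3% and 17.3% of all genes called in these directions. Ptgs2, cyclooxygenase-2, was at 106 to 154 against 10.5 to 12.7 CPM, the growth factor Bdnf at 154 to 187 against 20.2 to 26.9 CPM and Fosl2 at 57.9 to 82.4 against 14.2 to 20.4 CPM, all higher in L6-Npy, as was Nr4a3 (1.67-fold). Arc (135 to 187 against 315 to 389 CPM), Dusp1 (2.62-fold), Ier2 (2.00-fold) and Npas4 (1.81-fold) were higher in L6-Syt6. Of 7 heat shock genes Hspa8 (1.93-fold), Hsp90aa1 (1.87-fold), Dnajb1 (1.98-fold) and Hspa1a (2.12-fold) were higher in L6-Syt6, with a summed level of 1735 to 2542 against 3760 to 4113 CPM. Hspa1b was called the other way (1.42-fold), and its reads are hard to tell from those of its near-identical copy Hspa1a. The part of cell dissociation in these genes was not tested.

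Mitochondrially encoded genes had a median log2 fold change of 0.42, and 1 of 13, mt-Nd6 (1.68-fold), was called. Of 79 cytosolic ribosomal protein genes 76 passed and 1, Rpl7l1, was called, higher in L6-Syt6 (1.55-fold), with a median log2 fold change of 0.00.

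Markers of other cells were low in both subtypes, and some moved with the subtype. Inhibitory neuron markers summed to 4.15 to 14.3 CPM in L6-Npy and 5.51 to 18.5 CPM in L6-Syt6, and of 6 that passed among 9, Gad2 and Adarb2 were higher in L6-Syt6 at means of 1.20 and 2.18 CPM. Of the microglia list 6 of 7 passed, Cx3cr1 (2.49 against 0.972 CPM) and Csf1r (1.92 against 1.09 CPM) were higher in L6-Npy, and the sums overlapped (2.21 to 27.0 against 1.60 to 15.7 CPM). Oligodendrocyte lineage markers summed to 84.4 to 98.7 CPM in L6-Npy and 32.5 to 51.7 CPM in L6-Syt6. In that list 4 of 7 passed, and the myelin genes Mobp (17.7 to 29.6 against 1.94 to 3.96 CPM) and Mbp (45.6 to 59.4 against 18.9 to 26.9 CPM) were higher in L6-Npy, while Mog, another myelin gene, was at means of 0.295 and 0.393 CPM. Astrocyte markers (2 of 6 passed, 0 called, 19.6 to 30.3 against 15.3 to 23.3 CPM) and vascular markers (6 of 6 passed, 13.3 to 24.1 against 18.8 to 28.7 CPM) overlapped in sum. Among vascular genes Itm2a (3.73-fold) was higher in L6-Npy and Rgs5 and Vtn (2.05-fold) in L6-Syt6, and Rgs5 was at 129 CPM in L5-Htr2c. The part of other cells' RNA in the calls was not tested beyond the exclusion of cells with 2 or more such UMIs, which left 254 L6-Npy cells and 3539 calls.

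Cells within L6-Npy were not alike. After thinning to 10000 UMIs, a Npy UMI was found in 46.8%, 46.2%, 46.0% and 41.9% of L6-Npy cells, a split made after the values were seen. Oprk1 was detected in 65.9%, 60.0%, 58.7% and 69.0% of cells with a Npy UMI and in 36.3%, 42.9%, 41.2% and 45.3% of cells without. S100a6 was likewise found more often with Npy, in 39.2% to 54.8% against 24.8% to 29.7% of cells. Nr4a2 and Syt17 ran the other way, Nr4a2 with 14.5%, 22.5%, 20.6% and 14.7% against 38.9%, 29.3%, 31.1% and 26.1%, and Syt17 with 43.5%, 46.7%, 50.0% and 62.9% against 65.0%, 51.4%, 62.8% and 77.0%. These orders held in each of the 4 libraries. Median UMIs before thinning were 18140 to 24422 with a Npy UMI and 20190 to 26785 without.

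A minority of L6-Syt6 cells held several UMIs of the layer 6b genes, in most of them UMIs of Ctgf. Cells with 2 or more UMIs of Ctgf, Cplx3 and Nxph4 together, at 10000 UMIs per cell, were 9.13%, 8.30%, 8.41% and 6.09% of L6-Syt6. Of these cells, chosen by the 3 genes, 95.6%, 100%, 97.4% and 97.8% held Ctgf, while 16.4% to 24.4% held Cplx3 and 9.48% to 20.0% held Nxph4. Their corticothalamic-list median was 38, 37, 35 and 47 UMIs, against 45, 44, 44 and 53 in the other L6-Syt6 cells. Rprm was found in 74.1%, 71.6%, 71.1% and 66.7% of these cells against 96.8% to 97.5% of the others. Its level was 554 to 671 CPM in these cells and 1215 to 1266 CPM in the others. Tbr1 (287 to 337 against 335 to 354 CPM) and Foxp2 (189 to 227 against 226 to 293 CPM) were lower by less. Hs3st4 (355 to 658 against 350 to 624 CPM) and Tle4 (249 to 282 against 245 to 270 CPM) were at similar levels. The listed genes were thus not all lower in these cells. Nr4a2 was found more often in them, in 51.1%, 50.0%, 59.6% and 62.2% against 28.3%, 28.7%, 30.4% and 33.1%, and Slc17a6 in 28.9% to 37.0% against 19.5% to 21.7%. Syt6 itself was detected in 57.0% to 66.7% of them and in 68.5% to 81.0% of the others. This split too was chosen after the values were seen and is given with no test.

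The viral barcode was kept out of the gene fit, and its share of cells was compared between the labels. The sources used here do not say whether it entered the authors' clustering. The matrices hold 1 viral feature, taken here as the sum over the barcodes of the 5 injected targets, which the files do not state. Cells with at least 1 UMI of it were 80.3% (95% Wilson interval 75.4 to 84.5), 74.5% (69.0 to 79.4) and 79.3% (74.1 to 83.6) of unsorted L6-Npy cells. In L6-Syt6 the unsorted shares were 50.4% (47.9 to 52.9), 46.3% (43.7 to 48.9) and 48.0% (45.4 to 50.7). The difference was 29.9, 28.2 and 31.2 percentage points, 29.8 ± 1.49 (SD, n = 3), and the exact two-sided sign-flip permutation test over these 3 libraries gave p = 0.25, the smallest value it allows. In the sorted library, which was gated on EGFP from the same viruses, the shares were 82.6% (77.7 to 86.6) and 87.8% (85.3 to 90), a difference of -5.28 points. Over all 4 libraries the difference was 21.0 ± 17.6 points (SD, n = 4, exact permutation p = 0.25, smallest possible 0.13). The intervals cover counting error only.

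At a matched depth of 10000 UMIs per cell the unsorted shares were 73.6%, 69.2% and 70.8% against 42.9%, 40.2% and 39.4%. At 5 or more barcode UMIs the unsorted shares were 49.5%, 47.2% and 53.5% in L6-Npy and 28.5%, 27.1% and 27.2% in L6-Syt6, and the sorted shares 41.3% and 57.1%. Microglia-like cells had a barcode UMI in 3.44%, 3.15% and 4.00% of unsorted cells and in 9 of 46 sorted cells (19.6%), at the lower depths given above. With every cell thinned to 2000 UMIs the unsorted shares were 41.0%, 39.3% and 42.2% in L6-Npy, 23.6%, 20.8% and 20.9% in L6-Syt6 and 1.24%, 1.13% and 1.51% in the microglia-like cells, so both subtypes stood well above this background. Among barcode-positive cells the median barcode count was 6, 7, 8 and 4.5 UMIs in L6-Npy and 6, 6, 5 and 8 UMIs in L6-Syt6.

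L6-Npy cells held fewer UMIs and a larger mitochondrial share. Median UMIs per cell were 19031, 19858, 20812 and 25488 in L6-Npy and 22502, 22796, 23820.5 and 35701 in L6-Syt6, a mean log2 ratio of -0.28 ± 0.139 (SD, n = 4, exact permutation p = 0.13, the smallest possible). Median genes per cell were 5383, 5418, 5546 and 6258 against 5669, 5685.5, 5781 and 6893. At 10000 UMIs per cell the order turned, with 3848, 3832.5, 3826 and 3960 genes in L6-Npy and 3807, 3804, 3782 and 3920 in L6-Syt6, a mean difference of 38.4 genes (exact permutation p = 0.13, n = 4). Mitochondrial UMIs had medians of 8.13%, 8.19%, 8.31% and 4.52% in L6-Npy and 5.89%, 5.89%, 5.90% and 2.73% in L6-Syt6. The difference was 2.18 ± 0.276 percentage points (SD, n = 4, exact permutation p = 0.13). The authors regressed these cell measures out before clustering, and with 4 libraries no such test can pass 0.05.

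**Figure D5:**
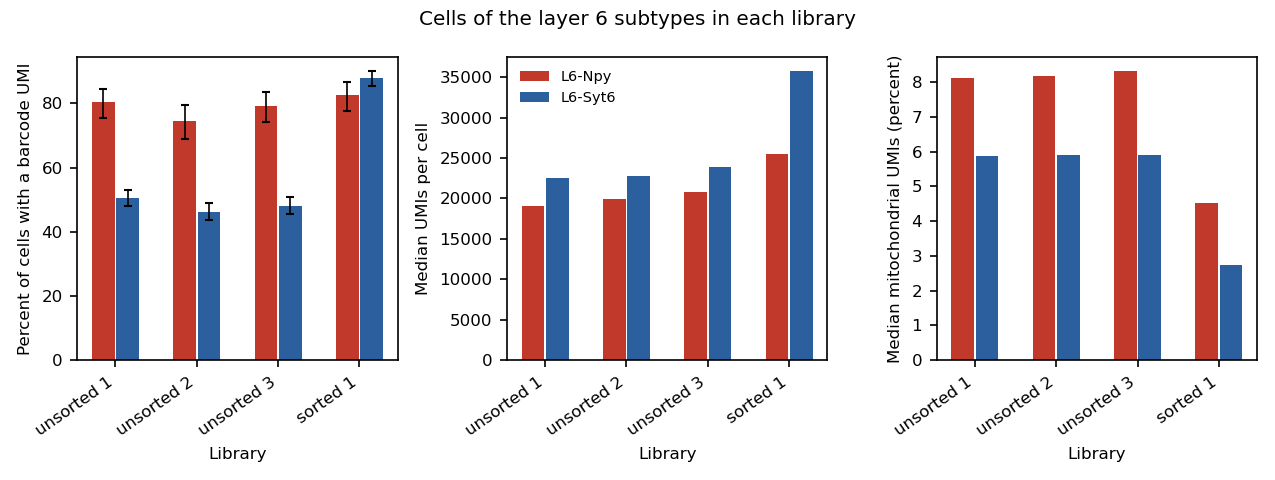
Percent of cells with a barcode UMI (bars with 95% Wilson intervals), median UMIs per cell and median percent of mitochondrial UMIs of L6-Npy (red) and L6-Syt6 (blue) in each library. L6-Npy exceeds L6-Syt6 in barcode share in the 3 unsorted libraries but not in the sorted library, has fewer UMIs in all 4 and more mitochondrial UMIs in all 4.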

How the data were processed

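The authors made the gene counts with Cell Ranger (matrix header 3.0.2, mm10) from droplet single-cell RNA-seq and deposited, per library, whole UMI counts of 31053 genes without normalization. The deposited cell metadata gives each neuron's subtype and its percent of mitochondrial UMIs, from the authors' clustering of cells that passed limits on genes (500 and 8000), UMIs (1000 and 60000) and mitochondrial UMIs (20%), with Leiden clustering after UMI count, gene number, mitochondrial percent and sorting were regressed out. For their projection calls the authors also set aside cells with extreme barcode UMI counts as possible doublets. The sources used here name no doublet caller, and no cells were removed as doublets here.

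Raw counts of L6-Npy and L6-Syt6 cells were summed per library, which gave 24300690 and 126762546 UMIs in all, and the viral feature (0.0319% to 0.0384% of UMIs in each library) was left out. The sums were fitted in edgeR 4.0.16 (R 4.3.3) with TMM scaling (factors 0.959 to 1.091), the low-count filter filterByExpr, the library as a block and the quasi-likelihood test. SE is the log2 fold change divided by the root of F, and folds are of fitted values. The common biological coefficient of variation was 0.0667. Without the fold limit, 8796 genes had an unadjusted p under 0.05. On simulated counts with the library sizes of this comparison (13505 genes tested), 96% of 200 changed genes were recovered, with 2 false calls. The simulation had less variation than the data, no library effect and true folds above the limit of a call. It checks the code and does not give the recovery or false calls of the real comparison. Cells were thinned by random draws of UMIs where stated, in Python 3.11.15 with numpy 2.4.6. Microglia-like cells were filtered cells outside the neuron table with at least 5 UMIs of the microglia list and 0 Slc17a7 UMIs. Genes that overlap another gene on the same strand can lose reads in such counting, and 71 duplicated symbols were told apart by gene ID. Coordinates are of GENCODE M21 (GRCm38). The intratelencephalic genes counted per cell join the general and the layer 6 list.

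Named genes were the 12 with the largest fold in each direction (same sign in 4 of 4 libraries, at least 20 CPM), up to 4 called members per direction of each of 34 gene lists, members of the marker and quality lists, and a few fixed genes. Some of these genes are not reported here. The members and lists were chosen with earlier results of these data known. Alternatives were DESeq2 1.42.0, limma 3.58.1 on per-cell CPM (pseudocount 1), other scaling, filters, thinning, cell subsets and leaving out each library, and, chosen after seeing the data, leaving out the mitochondrially encoded genes. The low-count intervals are 95% counting intervals of the ratio.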

Additional observations from a re-analysis of the deposited data

Results flagged for a closer look

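In the sorted library 2 results ran opposite to the 3 unsorted libraries. The barcode-positive share of L6-Npy minus that of L6-Syt6 was -5.28 percentage points there and 28.2 to 31.2 points in the unsorted libraries. The log2 ratio of Nts between L6-Npy and L6-Syt6 was 0.47 there and below 0 in each unsorted library. Neither difference between sorted and unsorted cells was tested, since there was 1 sorted library.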

How the results depend on the processing

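The count of 4424 called genes ranged from 3539 to 4887 over the settings that stayed within 1.5 times of it (DESeq2 4203, without the library block 4201, per-cell CPM with limma 3838). Fewer genes were called at 10 CPM or more in 4 sums (2502, with 1055 higher in L6-Npy and 1447 in L6-Syt6), in cells with 0 barcode UMIs (2745, 1304 and 1441) and at a log2 fold change of at least 1 (2121, 1055 and 1066), where fewer genes or cells entered or the limit was higher. Leaving out each library gave 4296 to 4474 calls. Over these runs without 1 library the barcode difference was 17.6 to 29.8 points, with 29.8 when the sorted library was left out. The log2 ratio of UMIs was -0.31 to -0.212 and the mitochondrial difference 2.11 to 2.32 points. At 5 or more barcode UMIs the mean barcode difference of the 4 libraries fell below that range, with 41.3% in L6-Npy against 57.1% in L6-Syt6 in the sorted library. With means in place of medians the mitochondrial difference was 1.85 points. Of 185 named called genes 163 kept their call and direction in each other setting that tested them, but the 17 settings tested 130 to 185 genes each. All 17 tested 128 of the genes, of which 118 kept call and direction. The other 22 lost it in at least 1, among them Ntsr1, Nts, Grp, Gad2, Adarb2, Csf1r, Cx3cr1, Vtn, Itm2a, S100b, Necab2, Hspa1b, Hcn3, Pou3f2, Pou3f3, Col23a1, Adamts2, Nxph2, Grid1, Scn4b and Syt9. Nts reversed to 0.36 without cells with 2 or more non-neuronal marker UMIs, and the cause was not tested. Of 114 named genes that were not called, Hspb1, Snap25 and Lamp5 were called in some setting. The library is the block of the main fit. Low counts in L6-Npy, with its smaller sums, limit the folds of genes near 0 UMIs there.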
